A study of Mus musculus with 47 samples.

Results

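The response of wild-type (WT) bone marrow-derived macrophages (BMDMs) to lipopolysaccharide (LPS) was read from 2 RNA-seq libraries among the 47 samples of the series, 1 of untreated cells and 1 of cells given LPS. BMDMs are macrophages grown from mouse marrow in macrophage colony-stimulating factor (M-CSF). The WT mice were C57BL/6 littermates carrying the floxed Zmynd8 allele (Zmynd8 fl/fl) without Cre, so the WT group shares the floxed allele with the Zmynd8 conditional knockout (cKO) group, in which Cre expressed from the Lyz2 locus of myeloid cells removes part of the gene. All cells were differentiated with 20 ng/ml of M-CSF, and treated cells then received 100 ng/ml of LPS for 6 h (M1 in the labels) or nothing (M0 in the labels). WT cells given 20 ng/ml of IL-4 for 6 h (M2 in the labels) and the untreated and LPS-treated cKO cells are set beside them. Each of these is 1 library, and this reading of M0, M1 and M2 was taken from the study's methods. The pair answers which transcripts differ between untreated macrophages and macrophages 6 h into the LPS response. RNA of 3 biological replicates was mixed before each library was made, so every value is 1 pooled measurement a side, and no difference has a replicate check, an SD or a p-value.

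LPS is a glycolipid of the outer membrane of Gram-negative bacteria. It is handed by CD14 to the receptor pair TLR4 and MD-2 (Ly96), which signals through MyD88 to NF-kB and AP-1 at the cell surface and through TRIF to IRF3 from endosomes. The first arm switches on cytokine and chemokine genes, and the second induces interferon-beta, which acts back on the cells through STAT and IRF factors to induce the interferon-stimulated genes. In mouse macrophages the response is also known for nitric oxide and itaconate production, a shift of metabolism towards glycolysis, and an arrest of proliferation.

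Estimated counts as deposited, rounded to whole numbers, were scaled by their library's total (26209356 counts untreated and 24902795 after LPS) to CPM. Fold changes are LPS over untreated on log2(CPM + 1), which understates the change of low genes, and TPM are the authors' values per transcript length. A gene was tested when its mean was at least 10 counts, and is called higher or lower where the fold was at least 2. A test on the reads with an adjusted p threshold was part of the rule and removed no gene. Of 12813 tested genes, 1345 (10.5%) were higher and 4203 (32.8%) were lower after LPS, and the median log2 fold change over all tested genes was -0.58. With median-of-ratios scaling in place of library totals, 2242 (17.5%) were higher and 2291 (17.9%) lower, and the median was -0.08. All 1345 higher genes stayed higher under that scaling and 897 joined them, whereas 1912 of the 4203 lower genes fell under the 2-fold limit. Each lower member of the gene lists given here with a log2 fold change of -1.56 or closer to 0 lost its call under that scaling, and each at -1.59 or below kept it. The values of each gene group are to be read against 10.5%, 32.8% and -0.58, or against 17.5%, 17.9% and -0.08.

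At 4-fold or more on log2(CPM + 1), 549 genes were higher and 1135 lower, and at 8-fold 253 and 232, a scale on which changes from or to few counts are held down. The 1345 higher genes held 7.37% of counts in the untreated library and 35.9% in the LPS-treated library. The 4203 lower genes held 34.6% and 10.9%, and the tested genes within 2-fold held 58.0% and 53.1%. The 10 most counted of the higher genes alone went from 1.05% to 7.29% of the library. Of the higher genes, 184 had 0 to 3 counts in the untreated library, and 110 lower genes had 0 to 3 counts in the LPS-treated library.

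**Figure D1:**
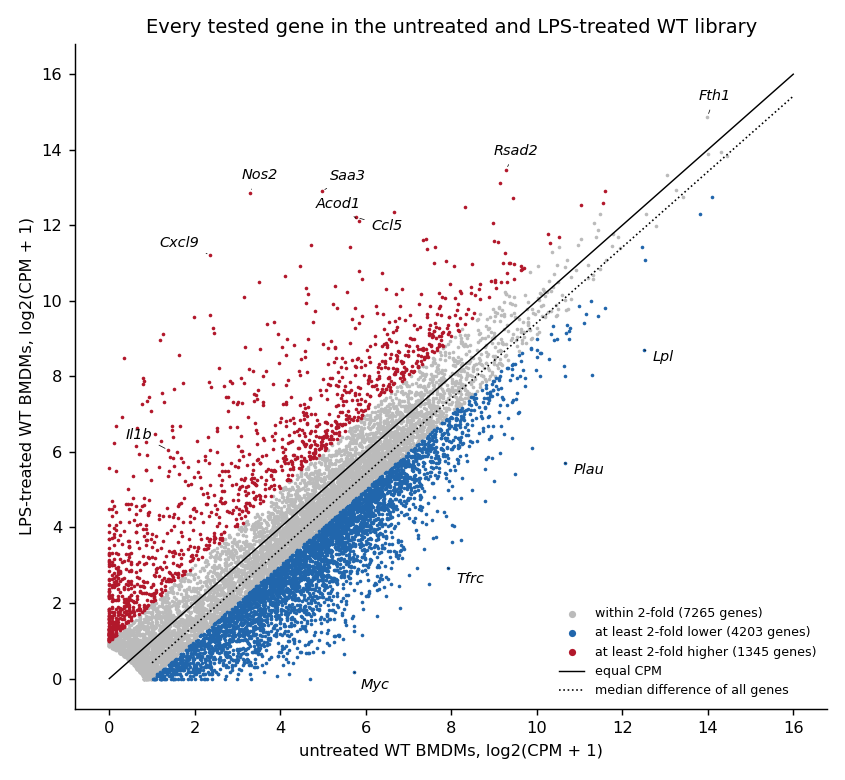
Level of each of the 12813 tested genes in untreated (x axis) and LPS-treated (y axis) WT BMDMs, both as log2(CPM + 1), 1 library each; red and blue points are genes at least 2-fold higher (1345) or lower (4203) after LPS, the solid line marks equal levels and the dotted line the median difference. Nos2 and Cxcl9 lie farthest above the solid line, and Myc, Tfrc and Plau are labelled below it.

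The libraries carried the transcripts of macrophages. All 10 macrophage markers had counts in both libraries, and their summed level was 19555 CPM untreated and 13906 CPM after LPS, with 2 of 10 higher and 2 lower (median log2 fold change -0.58, and 0.03 under median-of-ratios scaling). Markers of other cells were low: the 8 B cell markers summed to 5.38 and 3.13 CPM, the 8 mast cell and basophil markers to 0.534 and 0.522 CPM, and the 11 T and NK cell markers to 29.8 and 24.3 CPM, where Cd4 gave 762 and 406 counts, the other markers together 18 and 198, of which Lck, the called-higher member, made up 7 and 191, and Cd3e, Cd3d and Cd8a 0. The 12 neutrophil markers summed to 102 and 13.7 CPM, of which Mmp8 made up 2612 and 232 counts and the others together 63 and 109, while Elane was at 0 in both libraries and Ly6g at 1 and 0 counts. The 10 dendritic cell markers summed to 1.87 and 25.5 CPM (49 and 634 counts). All 6 tested members were higher, Ccr7 among them (2.45), and Flt3 and Cd209a were at 0 in both libraries. Only 3 of the 10 had more than 3 counts untreated. Some of the 6 therefore passed the count filter only through the LPS-treated library, where they were high, and their direction was fixed by it. The 11 fibroblast and endothelial markers summed to 60.5 and 152 CPM (3 of 4 tested were higher, such as Kdr with 1464 and 3295 counts), and the 10 erythroid and megakaryocyte markers to 117 and 29.8 CPM, where the chemokine gene Pf4 gave 3044 and 682 counts and the others together 33 and 60. The part of these other cells in the results was not tested, and fewer cells of a type cannot be told apart from less RNA per cell in bulk RNA.

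Nos2, Rsad2, Acod1 and Il1b, well-known LPS response genes, were all higher in the LPS-treated library, which fits its label. Nos2 (ENSMUSG00000020826, chr11:78920787-78960254, plus strand, mm10), the gene of inducible nitric oxide synthase, had 229 counts untreated and 186078 after LPS, or 3.08 and 2507.5 TPM, an 855-fold difference (95% Clopper-Pearson limits 751 to 978). Acod1 (chr14:103046977-103056573), which makes the enzyme of itaconate synthesis, had 1475 and 110737 counts, 79.0-fold (75.1 to 83.2). Il1b (chr2:129364570-129371139), encoding the pyrogenic cytokine IL-1 beta, had 42 and 1626 counts, 40.7-fold (30.01 to 56.8), and reached 79.3 TPM where Acod1 reached 2483 TPM. Rsad2 (chr12:26442746-26456452), the antiviral protein viperin, had 16270 and 282143 counts, 18.3-fold (17.96 to 18.5), and the untreated library already held 244 TPM of it. These limits, like all limits here, cover the counting of reads in 2 libraries and no variation between mice or cultures.

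**Figure D2:**
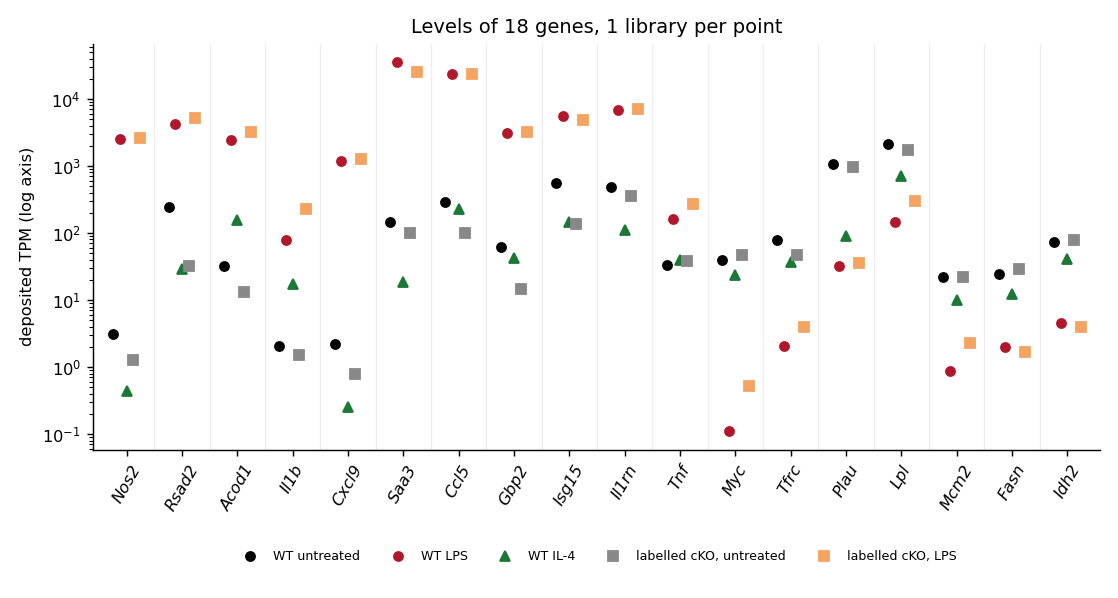
Deposited TPM on a log axis of 18 genes in 5 BMDM libraries: WT untreated, WT with LPS, WT with IL-4, and the libraries labelled cKO untreated and with LPS; each point is 1 pooled library. Nos2 was at 2507.5 TPM with LPS in WT and 2630 in the library labelled cKO, and at 3.08 and 0.44 TPM in WT untreated and with IL-4.

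The 250 bases before the RefSeq start site (GRCm38.p6) are shown for 7 genes of different groups, read in the direction of transcription. These genes were picked as examples and not by a rule, and do not stand for all members of their groups. Capitals mark letters matching an interferon-stimulated response element (ISRE, GAAA and GAAA with any 2 bases between), a kB motif (GGGA and TTCC with any 2 bases between) or an E2F motif (TTT and GCGC with any base between), on either strand. The first 5 genes were higher after LPS and belong to the interferon response (Rsad2, Isg15), the chemokines (Cxcl10), MHC class I (B2m) and the NF-kB inhibitors (Nfkbia). Acod1 was higher too, and Mcm6, a subunit of the replicative helicase, was lower.
Rsad2, chr12:26456453-26456702, minus strand: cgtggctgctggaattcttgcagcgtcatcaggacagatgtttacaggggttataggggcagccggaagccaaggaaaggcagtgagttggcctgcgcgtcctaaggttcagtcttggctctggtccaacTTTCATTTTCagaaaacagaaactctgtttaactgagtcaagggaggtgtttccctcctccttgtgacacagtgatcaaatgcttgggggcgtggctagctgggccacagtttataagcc
Isg15, chr4:156200819-156201068, minus strand: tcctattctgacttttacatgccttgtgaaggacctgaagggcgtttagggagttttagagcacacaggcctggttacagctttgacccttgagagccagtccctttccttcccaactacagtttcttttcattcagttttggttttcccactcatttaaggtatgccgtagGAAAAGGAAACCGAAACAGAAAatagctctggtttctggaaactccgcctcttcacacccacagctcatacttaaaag
Cxcl10, chr5:92348890-92349139, minus strand: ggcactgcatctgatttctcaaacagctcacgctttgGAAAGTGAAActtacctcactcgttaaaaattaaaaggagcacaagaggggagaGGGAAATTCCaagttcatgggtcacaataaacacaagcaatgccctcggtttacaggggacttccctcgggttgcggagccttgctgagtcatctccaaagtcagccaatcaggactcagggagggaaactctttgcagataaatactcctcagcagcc
B2m, chr2:122147437-122147686, plus strand: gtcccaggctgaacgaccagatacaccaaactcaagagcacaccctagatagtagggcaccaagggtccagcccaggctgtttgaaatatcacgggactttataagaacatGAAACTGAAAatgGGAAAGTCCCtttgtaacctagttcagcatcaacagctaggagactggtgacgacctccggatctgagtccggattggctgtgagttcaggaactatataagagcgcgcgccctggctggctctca
Nfkbia, chr12:55492648-55492897, minus strand: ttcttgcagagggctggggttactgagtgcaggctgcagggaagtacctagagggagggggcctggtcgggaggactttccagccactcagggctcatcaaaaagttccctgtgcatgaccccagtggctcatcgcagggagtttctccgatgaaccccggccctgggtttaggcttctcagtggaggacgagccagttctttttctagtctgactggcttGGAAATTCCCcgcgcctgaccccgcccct
Acod1, chr14:103046762-103047011, plus strand: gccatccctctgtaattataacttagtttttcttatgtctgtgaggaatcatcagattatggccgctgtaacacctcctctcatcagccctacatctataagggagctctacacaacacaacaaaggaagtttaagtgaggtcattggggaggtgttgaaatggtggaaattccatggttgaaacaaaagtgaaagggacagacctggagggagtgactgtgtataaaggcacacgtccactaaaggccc
Mcm6, chr1:128359706-128359955, minus strand: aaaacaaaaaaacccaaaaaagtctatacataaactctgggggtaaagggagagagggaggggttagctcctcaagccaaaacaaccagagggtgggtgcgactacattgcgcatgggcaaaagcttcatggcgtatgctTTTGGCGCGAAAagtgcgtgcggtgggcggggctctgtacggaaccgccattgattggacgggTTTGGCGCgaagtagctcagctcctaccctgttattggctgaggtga

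Counted from the start site, the ISRE letters began 120 bases upstream in Rsad2, at 78, 72 and 66 bases upstream in Isg15 as 3 overlapping copies, at 213 in Cxcl10 and at 139 in B2m. The kB letters began 159 bases upstream in Cxcl10, 126 in B2m and 29 in Nfkbia. Mcm6 held E2F letters at 110, 106 and 47 bases upstream, the first 2 of which overlap on opposite strands. In the Acod1 window none of the 3 patterns occurred in these letters. Over all 27025 promoters of the table, counted from 250 bases before to 50 after the start, 3.52% held the ISRE letters, 1.46% the kB letters and 1.38% the E2F letters. A promoter was given for 9694 (75.7%) of the tested genes, so shares are stated only for lists with a promoter for at least 80% of tested members. List shares use the promoter nearest the GENCODE start of each tested gene, which lay within 100 bases of it for 7348 genes. The share over all promoters includes genes that were not tested and takes the promoter of lowest coordinate, so these sets are not matched.

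On log2(CPM + 1), the 15 largest increases were of genes with varied roles. After Nos2 came Cxcl9, a chemokine for activated T cells, with 109 and 59080 counts, a 570-fold difference (473 to 695). Saa3, an acute-phase serum amyloid A, went from 794 to 190284 counts and reached 35079 TPM, which placed it next to the ferritin gene Fth1 (65998 TPM) at the top of the LPS-treated library. Of the others among the 15 largest, Tgtp1, Gbp4 and Iigp1 encode interferon-induced GTPases (log2 fold changes of 7.88, 7.28 and 6.94), Cxcl11 a chemokine (7.18), Socs3 a suppressor of cytokine signalling (7.59), Serpina3g a protease inhibitor (7.78) and Upp1 uridine phosphorylase (8.14). Cnn3 (7.07), AW112010 (6.98), Clic5 (6.95) and AA467197 (6.87) were also among them. Tgtp1 has the near-identical copy Tgtp2, between which reads may be split.

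Some transcripts had 0 counts before LPS. Gbp10, a guanylate-binding protein with the close relative Gbp6, had 0 counts untreated and 1162 after LPS, and was at least 408-fold higher against a floor of 3 counts. The next by counts were Gm11172 with 537, Gm15056 with 395, the alarmin Il33 with 343 (at least 120-fold) and Thbs4, an extracellular matrix thrombospondin, with 300. Il12b, the shared subunit of IL-12 and IL-23, had 0 and 216 counts, at least 75.8-fold higher, and interferon-beta (Ifnb1) had 0 and 61, at least 21.4-fold higher. Il6 had 2 counts untreated and 330 after LPS, a ratio of 174 with counting limits of 47.7 to 1440.

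On the same scale, the 15 largest decreases were of genes with varied roles. Myc, the transcription factor of cell growth, had 1368 counts untreated and 3 after LPS, a ratio of 433 with counting limits of 148 to 2100. Tfrc, the transferrin receptor, had 6288 and 165 counts, 36.2-fold lower (31.0 to 42.5), and Plau, the urokinase protease, 42134 and 1278, 31.3-fold lower (29.6 to 33.1). Srm, which makes spermidine, had 1148 and 14 counts, 77.9-fold lower (46.2 to 143), and the ribosome assembly genes Utp20 and Tsr1 had log2 fold changes of -4.76 and -4.31. Also among the 15 were Arhgap19 (-4.97), the p53 target Sesn1 (-4.93), Rnf150 (-4.63), the bridging ligand of TAM receptors Gas6 (-4.56), the MAP kinase phosphatase Dusp4 (-4.46), Prmt7 (-4.42), the transporter Abcc3 (-4.41) and Cluh (-4.34). Nptx1 went from 658 counts to 0 and was at least 208-fold lower. All of these calls held under median-of-ratios scaling.

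Of the most abundant transcripts of untreated cells, most were within 2-fold. Per length, Fth1 and Ftl1, the heavy and light chains of ferritin, were at 37873 and 35098 TPM untreated and at 65998 and 12992 TPM after LPS. Macrophage lysozyme Lyz2 was at 14503 and 8691 TPM, apolipoprotein E at 13438 and 10674 TPM, and the lysosomal protease Ctsd at 10878 and 3598 TPM. Beside Saa3, the chemokine gene Ccl5 (286 and 23717 TPM) and beta-2 microglobulin B2m (7270 and 17249 TPM) entered the 10 most abundant after LPS. Of the genes named by size or abundance, Ctsd and Ftl1 alone lost their lower call under median-of-ratios scaling. Ferritin genes have processed copies in the genome that could share reads.

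Receptors for LPS and other microbial products were divided: of 18 tested, 2 were higher and 3 lower. The higher ones were the nucleic acid sensors Tlr9 (547 and 6501 counts, log2 fold change 3.58) and Tlr3 (522 and 2294 counts, 2.15). Tlr4 itself was lower, with 2114 and 927 counts (-1.10), a call lost under median-of-ratios scaling (-0.50), and Tlr13, a receptor for bacterial ribosomal RNA, had 13207 and 2523 counts (-2.30). Cd36, a scavenger receptor and TLR co-receptor, had 65373 and 6459 counts (-3.26). The partners Cd14 (5848 and 6286 counts, 0.18) and Ly96 (0.44), and Tlr2 (0.17), were within 2-fold. The list's median was -0.01, and 0.51 under median-of-ratios scaling, where 5 were higher and 2 lower.

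Among 25 Toll-like receptor signalling proteins, 7 were higher and 4 lower (median -0.26, and 0.34 with 9 higher and 1 lower under median-of-ratios scaling). The adaptor Traf1 went from 256 to 4530 counts (4.09), the kinase gene Ripk2 had 2.03, and the ubiquitin ligase Peli1 1.66. Myd88, the adaptor of most Toll-like receptors, had 2421 and 6207 counts (1.42), and the kinases Map3k8 and Ikbke had 1.59 each. Irak3, an inhibitory member of its kinase family, had 1.30, while Irak1, the active kinase, had 2841 and 737 counts (-1.84). Map3k7 (TAK1, -1.18), Chuk (IKK alpha, -1.13) and Tollip (-1.07) were the other lower members.

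Of 11 NF-kB subunits and inhibitors, 7 were higher and 0 lower (median 1.85), and 8 were higher under median-of-ratios scaling (2.45). The higher ones were Bcl3 (361 and 2250 counts, 2.63), Nfkbie (339 and 2101, 2.62), Nfkbia (1522 and 7494, 2.35), Nfkbiz (2.12), Nfkb2 (1746 and 6114, 1.87), Nfkbib (1.85) and Relb (1.45). The subunits Nfkb1 (0.63), Rel (0.28) and Rela (0.20) and the inhibitor Nfkbid (0.10) were within 2-fold.

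Feedback inhibitors of the response were mostly higher, 15 of 26 with 5 lower and a median of 1.46 (17 and 4 under median-of-ratios scaling, where Zfp36l2 lost its lower call). Socs1, which blocks JAK kinases, went from 128 to 7350 counts (5.65). The anti-inflammatory cytokine Il10 had 52 and 1554 counts (4.41), and Il1rn, the antagonist of the IL-1 receptor, 14858 and 222746 (3.98). Usp18, which trims ISG15 and dampens interferon receptor signalling, had 3.48, and the deubiquitinase Tnfaip3 (A20) 2395 and 7404 counts (1.69). Both the mRNA-destabilising Zfp36 (1.38) and the phosphatase Dusp1 (1.45) were higher. Some of their relatives went the opposite way: Zfp36l1 was at -2.75, Zfp36l2 at -1.50, Dusp6 at -2.68 and Dusp4 at -4.46, and the deubiquitinase Otulin at -1.75. The other Dusp genes of the list were not lower, and Dusp5 was within 2-fold (-0.05).

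Of 39 cytokines and growth factors listed, 34 were tested, of which 21 were higher and 8 lower (median 1.37), and 23 and 5 under median-of-ratios scaling. The IL-12 family members Il27 (29 and 2208 counts, 5.41) and Ebi3 (2.72), the vasoconstrictor peptide Edn1 (9 and 775, 4.58), Il1a (57 and 1392, 4.16), the death ligand Tnfsf10 (268 and 4939, 4.15) and Il15 (433 and 3785, 3.13) had the larger increases. Tnf was higher by a smaller step, with 868 and 4204 counts (2.32), as were Csf1 (1.47) and Il18 (1.37). Lower members included growth factors: Pdgfb had 2918 and 234 counts (-3.43), Igf1 17830 and 2016 (-3.06), Gdf15 -1.49 and Tgfb1 -1.11. The cytokine genes Tnfsf12 and Tnfsf13 were lower as well. Il12a (0 and 6 counts) and Il23a (1 and 7) were too low to test, and Csf2 was at 0 in both libraries, which allows up to 3 counts.

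Chemokines held 0.182% of counts untreated and 1.35% after LPS. Of 28 listed, 22 were tested, and their median was 0.71 with 10 higher and 4 lower (1.204 with 12 and 3 under median-of-ratios scaling). Beside Cxcl9 and Cxcl11, the ligands Cxcl10 (667 and 71192 counts, 6.76), Ccl5 (1414 and 118165, 6.43) and Ccl8 (37 and 3949, 6.05) were among the highest, followed by Ccl22 (4.08) and Ccl12 (3.62). Monocyte chemoattractants Ccl2 (6423 and 19081 counts, 1.64) and Ccl7 (1.58) had smaller increases. The rapid-response chemokines Ccl3 (1887 and 1683 counts, -0.09), Ccl4 (3364 and 4870, 0.60), Cxcl2 (117 and 158, 0.43) and Cxcl1 (42 and 18, -0.60) did not pass 2-fold at 6 h. Lower were Cxcl14 (-2.77), the platelet-type chemokines Pf4 (3044 and 682 counts, -2.04) and Ppbp (-1.59), and Ccl6 (-1.10).

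Chemoattractant receptors were divided. The formyl peptide receptors Fpr2 (46 and 2337 counts, 5.11) and Fpr1 (4.45), the chemerin-binding Ccrl2 (4.42) and the lymph node homing receptor Ccr7 (2.45) were higher. The complement C5a receptor C5ar1 had 18758 and 1040 counts (-4.07), and Gpr183, a receptor for oxysterols, 813 and 16 (-4.28). Ccr3 (-3.20), Cxcr4 (-2.67) and C5ar2 (-2.21) were lower too, as was Cx3cr1 with 67 and 3 counts. The list had 4 higher and 6 lower of 17 tested, and its median of -0.31 became 0.18 under median-of-ratios scaling, with 5 higher and 6 lower.

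**Figure D3:**
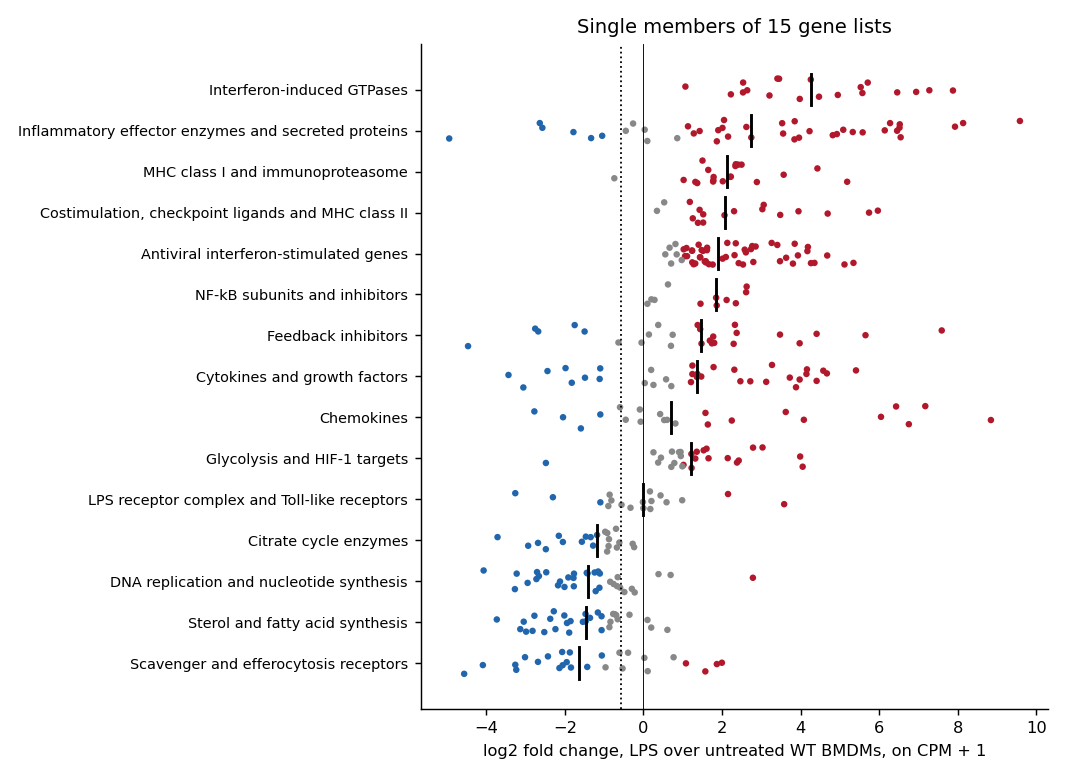
Log2 fold change, LPS over untreated, of the tested members of 15 gene lists in WT BMDMs; each point is 1 gene from 1 library a side, red where at least 2-fold higher and blue where lower, short bars are list medians and the dotted line is the median of all tested genes. The 19 interferon-induced GTPases are all red, and sterol and fatty acid synthesis holds no red point.

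Antiviral interferon-stimulated genes were nearly all higher: 48 of 54 tested members, with 0 lower and a median of 1.89. Together they went from 1.28% to 7.02% of the library. Ifit2, which binds viral RNA, had 18283 and 167230 counts (3.27), Ifit1 5095 and 68071 (3.81), Mx1, a GTPase against influenza viruses, 4238 and 77893 (4.27), and Isg15, a ubiquitin-like modifier, 5064 and 51347 (3.41). Other wide differences were those of Ifit1bl1 (606 and 24430 counts, 5.35), Slfn4 (5.12), Oasl1 (4.35) and Cmpk2 (4.17). The other 6 tested, Ifi204, Ifi27l2a, Rtp4, Slfn5, Trim25 and Oas3, had 0.56 to 0.98 and passed 2-fold under median-of-ratios scaling, where all 54 were higher. Ifi44l had 0 counts in both libraries.

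The level of this group in untreated cells differed between libraries. Its summed TPM was 12095 in untreated WT cells, 5073 in the untreated library labelled cKO, and 7901 in WT cells given IL-4. Rsad2 had 16270 counts in untreated WT cells, against 2213 in the untreated library labelled cKO and 2053 with IL-4. After LPS, the summed TPM of the group was 52659 in WT cells and 50600 in the library labelled cKO. The part of the untreated level in the smaller WT folds was not tested.

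The interferon-induced GTPases, which attack the vacuoles of intracellular pathogens, had the highest median of the functional lists, 4.26, with 19 of 19 higher. Gbp2 went from 2608 to 131041 counts (5.71) and Gbp5 from 553 to 48450 (6.46). The lowest member, Gvin1, had 1.07. The group went from 0.112% to 1.80% of counts.

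Of 23 interferon ligands, receptors, IRFs and STATs, 8 were higher and 1 lower (median 0.65), and 14 were higher and 1 lower under median-of-ratios scaling (1.26). Irf1 had 1546 and 19208 counts (3.69) and Irf7, which sustains interferon production, 13182 and 106913 (3.09). Jak2 (3.04), Stat3 (2.58), Stat2 (1.98) and Tyk2 (1.71) were higher. Irf3, which the TRIF arm activates as a protein, was within 2-fold (-0.72), as was Irf9 (0.00). The gamma-interferon receptor chain Ifngr1 was the lower member, with 2583 and 511 counts (-2.21).

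AP-1, ATF, EGR and other immediate early factors showed 7 higher and 8 lower of 30, with a median of -0.05 (11 higher and 6 lower under median-of-ratios scaling, 0.55). Batf2 (4.45), Batf (3.71), Ier3 (2.91), Klf4 (2.59), Cebpb (1.75) and Junb (1.69) were higher. Fos had 4038 and 968 counts (-1.96) and Jun -1.07, and the early growth response genes Egr1 (-2.65) and Egr2 (668 and 25 counts, -3.72) were lower. Cebpa, a myeloid differentiation factor, had 5001 and 306 counts (-3.85), opposite in direction to Cebpb.

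Inflammatory effector enzymes and secreted proteins went from 0.591% to 3.53% of counts, with 30 of 41 higher and 6 lower (median 2.75). The complement genes Cfb (429 and 40452 counts, 6.55) and C3 (4442 and 79596, 4.23) were higher. Ptgs2, the inducible cyclooxygenase, had 24 and 4351 counts (6.52), and Ptges, which makes prostaglandin E2 from its product, 5.33. Ch25h, which makes 25-hydroxycholesterol, had 18 and 3845 (6.53), the siderophore-binding Lcn2 22 and 4002 (6.46), and ceruloplasmin (Cp) 6.14. The arginine transporter Slc7a2 had 351 and 17137 counts (5.58), the mitochondrial superoxide dismutase Sod2 2291 and 31611 (3.84), and Hmox1 15932 and 61185 (2.01). The constitutive cyclooxygenase Ptgs1 (-1.78), the leukotriene pathway gene Alox5ap (7154 and 1123 counts, -2.57) and macrophage elastase Mmp12 (42210 and 6427, -2.64) were lower.

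Inflammasome and cell death genes were higher in 17 of 27 cases and lower in 0 (median 1.56). Casp4, the murine caspase-11 that binds cytosolic LPS, had 546 and 6992 counts (3.69), Casp1 2239 and 11524 (2.42), and their substrate Gsdmd 1880 and 5303 (1.56). The necroptosis effector Mlkl had 2.21, pyrin (Mefv) 3.37, and the survival gene Bcl2a1a 3.79, a member of a cluster of near-identical copies. Nlrp3 was within 2-fold (1299 and 1997 counts, 0.68).

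Antigen presentation genes of both classes were higher. For costimulation, checkpoint ligands and MHC class II, 15 of 17 were higher with a median of 2.06, among them Cd40 (611 and 32422 counts, 5.74), Slamf1 (15 and 2426, 5.97), Cd86 (685 and 17426, 4.69), the PD-1 ligand Cd274 (4496 and 66285, 3.95), Icam1 (3.48) and the class II regulator Ciita (36 and 469, 3.06). Cd80, the other B7 ligand, was not called (252 and 311 counts, 0.35). Of the MHC class I and immunoproteasome list, 19 of 20 were higher (median 2.12) and the share of counts went from 0.977% to 2.82%. The class I chain H2-K1 had 32175 and 86774 counts (1.504), the peptide transporter Tap1 4724 and 23011 (2.35), the immunoproteasome subunit Psmb9 1534 and 8357 (2.50), and the regulator Nlrc5 2.02. The Q-region genes H2-Q6 (278 and 10502 counts, 5.19) and H2-Q7 (4.43) had the largest changes, with the reservation that reads may be split among these similar genes. Erap1, which trims peptides, was the exception, with 2882 and 1630 counts (-0.74).

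Among the 17 MHC class I list promoters given, 5 (29.4%) held the ISRE letters shown above for B2m, namely those of H2-T22, H2-T23, B2m, Psme1 and Erap1, against 3.52% of all promoters. Erap1 was therefore a holder of the letters that was not higher.

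Macrophage lineage factors and receptors depended on the scaling, with 7 higher and 9 lower of 28 (median -0.30), but 10 higher and 3 lower under median-of-ratios scaling (0.29). Csf1r, the receptor for M-CSF, had 45362 and 14654 counts (-1.55), and Trem2, a lipid-sensing receptor, 18986 and 4195 (-2.10). Csf3r, the receptor for the granulocyte growth factor, had 934 and 12288 (3.75), and the Fc receptors Fcgr4 and Fcgr1 3.05 and 1.30. Spi1 (PU.1, 0.72) and Adgre1 (F4/80, 0.14) were within 2-fold.

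Of 26 scavenger and efferocytosis receptors, 4 were higher and 15 lower (median -1.64, and 5 and 13 with a median of -1.10 under median-of-ratios scaling). Lrp1 had 72330 and 19132 counts (-1.84), the mannose receptor Mrc1 11632 and 1151 (-3.24), Cd93 11553 and 623 (-4.09), and Stab1 -2.07. The receptor tyrosine kinase Axl (1.998), its relative Mertk (1.58) and the bacterial scavenger receptor Marco (1.87) were higher, whereas Gas6, a ligand of Axl and Mertk, was among the 15 largest decreases.

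The LXR target and cholesterol efflux list had 2 higher and 9 lower of 19 (median -0.82), and 4 higher and 5 lower under median-of-ratios scaling (-0.22): the cholesterol exporter Abcg1 (3855 and 10453 counts, 1.51) and the receptor Nr1h3 (LXR alpha, 1.15) were higher, and lipoprotein lipase Lpl had 153250 and 10330 counts (-3.81) and Pparg 1717 and 88 (-3.87). Abca1 was lower here (7230 and 2879 counts, -1.25), with 0.60 in the libraries labelled cKO. For sterol and fatty acid synthesis, 0 of 31 were higher and 21 lower (median -1.47, 14 lower under median-of-ratios scaling), including fatty acid synthase Fasn (2152 and 131 counts, -3.73), the squalene epoxidase gene Sqle (2365 and 234, -3.13) and the regulator Srebf2 (5123 and 1012, -2.24).

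Of 33 DNA replication and nucleotide synthesis genes, 22 were lower and 1 higher with a median of -1.42 (16 and 2 with a median of -0.96 under median-of-ratios scaling). The helicase subunits Mcm2 (1312 and 51 counts, -4.07), Mcm3 (-3.27) and Mcm6 (3600 and 422, -2.95), polymerase alpha Pola1 (-3.23) and the clamp Pcna (24435 and 10440, -1.15) were lower. In 8 (28.6%) of the 28 promoters given for this list the E2F letters shown above for Mcm6 occurred, against 1.38% of all promoters. The cell cycle and mitosis list stayed near the values of all tested genes, with 6 of 42 higher, 13 lower and a median of -0.51, and 9 higher, 6 lower and -0.16 under median-of-ratios scaling. The spindle gene Tpx2 (199 and 3872 counts, 4.19), the cyclins Ccne1 (2.95), Ccnf (2.91) and Ccnd2 (2.84) were higher, Cdk6 (4269 and 752 counts, -2.39), Cdk4 (3252 and 959, -1.66) and Top2a (-2.03) were lower, and the proliferation marker Mki67 was at 0.44. The CHR letters of mitotic genes (TTTGAA) occurred in 15 (42.9%) of the 35 cell cycle promoters given, against 18.1% of all promoters.

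Of 26 glycolysis and HIF-1 target genes, 15 were higher and 1 lower (median 1.22), and 23 and 1 under median-of-ratios scaling: Pfkfb3, which makes the activator of phosphofructokinase, had 1382 and 22200 counts (4.05), Bnip3 3.99, the lactate exporter Slc16a3 2.79, the glucose transporter Slc2a1 2157 and 11129 counts (2.43), Hk3 1.66 and lactate dehydrogenase Ldha 33081 and 73596 (1.23). A second transporter, Slc2a3, was the lower member (367 and 42 counts, -2.48), and Hif1a was at 0.95. Of 21 citrate cycle enzymes, 0 were higher and 11 lower (median -1.18, 6 lower under median-of-ratios scaling), with the isocitrate dehydrogenases Idh2 (2042 and 125 counts, -3.71), Idh3a (-2.68) and Idh1 (3562 and 585, -2.48) and the succinyl-CoA ligase subunit Suclg2 (-2.93). The succinate dehydrogenase subunit Sdhb was at -0.27.

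Nuclear-encoded oxidative phosphorylation subunits stayed closer to the median of all genes, with 0 higher and 2 lower of 40, Ndufs8 (-1.46) and Ndufs1 (-1.07), and a median of -0.45 (2 higher, 0 lower and 0.15 under median-of-ratios scaling). The mitochondrially encoded genes had 1 higher and 4 lower of 16 (median -0.71, and 4 higher and 1 lower under that scaling). Cytosolic ribosomal protein genes were lower in 52 of 82 cases and higher in 0 (median -1.12), but 11 were lower and 1 higher under median-of-ratios scaling (median -0.52). Reads of ribosomal protein genes may be shared with their many processed copies. Of the 20 housekeeping genes, 1 was higher and 8 lower (median -0.77), and 4 and 4 under median-of-ratios scaling (-0.16). The lower ones included Gusb (-2.07) and Hprt (-1.56), while Actb (0.27) and Gapdh (0.73) were within 2-fold.

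NRF2 targets, iron handling and lysosome genes were mixed. The NRF2 list had 5 higher and 10 lower of 20 (median -0.50), but 6 higher and 3 lower under median-of-ratios scaling (0.08), with thioredoxin Txn1 (1.85) and Prdx1 (1.496) higher and the glutathione synthesis gene Gclc (-2.69), Gpx1 (-2.52), catalase (-2.46) and Nfe2l2 itself (-1.33) lower. In iron handling, 4 of 16 were higher and 5 lower (median -0.38), and 6 and 4 under that scaling (0.22). The iron exporter ferroportin, Slc40a1, had 2922 and 262 counts (-3.29), its inhibitor hepcidin, Hamp, 0 and 100 counts, and the ferrireductase Steap3 -3.36. Of 40 lysosome genes, 2 were higher, the proteases Ctsc (6150 and 53297 counts, 3.18) and Ctsh (2.12), and 11 were lower, such as Lipa, which hydrolyses cholesteryl esters (41793 and 7671, -2.37), and Ctsl (-1.79). The lysosome median was -0.41, and under that scaling 8 were higher and 6 lower (0.19). Ctsb (-0.36) and Psap (-0.12) were within 2-fold.

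Chromatin and repressor genes that the study dealt with had 3 higher and 4 lower of 16 (median -0.42), and 3 and 1 under median-of-ratios scaling (0.19). The histone H3K27 demethylase Kdm6b (185 and 711 counts, 1.87), Hdac1 (1.16) and the BET protein Brd2 (1.02) were higher. The corepressor genes Ncor1 (-1.43), Rcor1 (-1.13) and Hdac2 (1140 and 226 counts, -2.14) were lower, and Zmynd8 was at -0.14. Of 21 microRNA host and noncoding genes, 11 were tested, 2 were higher and 5 lower (median -0.87), among them Gas5 (1770 and 198 counts, -2.94), Snhg1 (-2.44) and Neat1 (-1.21). Ptgs2os2, a transcript beside Ptgs2, had 2.55, and the strand setting of the counting is not given in the sources used here. Mir155hg, the host gene of miR-155, had 1 and 305 counts.

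**Figure D4:**
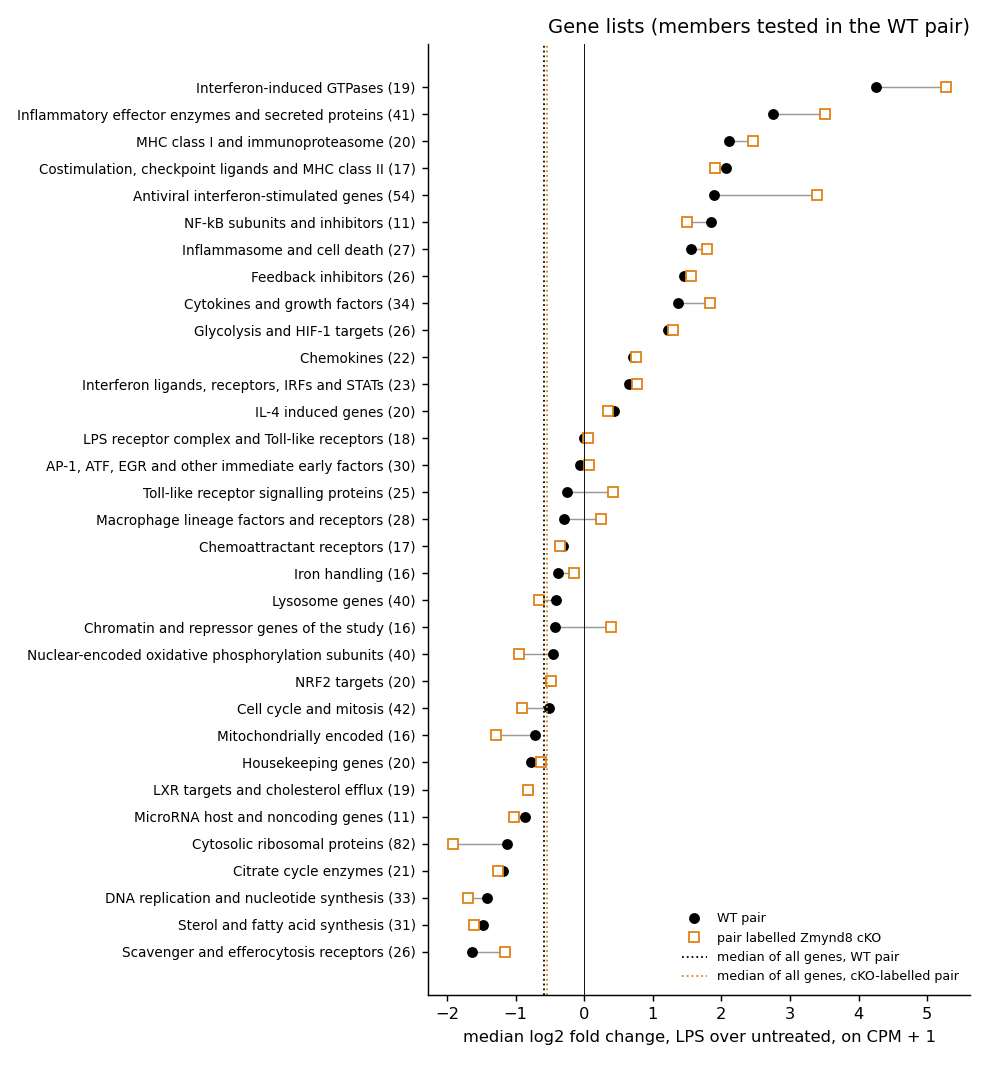
Median log2 fold change, LPS over untreated, of each gene list in the WT pair (black) and in the pair of libraries labelled cKO (open squares), with library totals and the number of WT members tested in brackets; dotted lines mark the medians of all tested genes. The interferon-induced GTPases (4.26), the effectors (2.75) and the MHC class I list (2.12) lie farthest to the right in WT.

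Genes induced by IL-4, the alternative activation signal, were set beside their level in WT cells given 20 ng/ml of IL-4 for 6 h. In that library the 12 neutrophil markers summed to 399 CPM, against 102 CPM untreated. The 10 erythroid and megakaryocyte markers summed to 380 CPM, against 117 CPM untreated. The part of other cells in the IL-4 values was not tested. Of 24 such genes found, 20 were tested, 9 were higher and 6 lower after LPS (median 0.44). Arg1, arginase, was higher after LPS (20 and 659 counts, 3.96), at 0.88 and 29.5 TPM, and stood at 1778 TPM with IL-4. The receptor chain Il4ra had 2987 and 31761 counts (3.47), while Clec10a (-2.21), Mrc1 and Egr2 were lower. Mrc1 was at 123 TPM untreated, 12.03 with LPS and 318 with IL-4, and Egr2 at 13.5, 0.49 and 143 TPM. Chil3 had 18 and 15 counts untreated and with LPS and 8404 with IL-4, and Retnla 0, 0 and 85. The 1345 genes higher after LPS held 9.41% of the IL-4 library, and the 4203 lower genes 33.3%, close to the 7.37% and 34.6% of untreated cells. Of LPS-induced genes, Ctsc was also abundant with IL-4 (148, 1275 and 1568 TPM), and Cd40 lay between (27.95, 1823 and 371 TPM).

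A second pair of libraries, labelled Zmynd8 cKO, was treated in the same way and shares no library with the WT pair. Gene-level counts of Zmynd8 (2284 and 1967 in WT untreated and LPS-treated, 1842 and 2033 in the libraries labelled cKO) do not separate the genotypes, but the deletion removes only some exons, so they cannot check it. In that pair, 1668 of 12666 tested genes (13.2%) were higher and 4157 (32.8%) lower. Over the 12427 genes tested in both pairs, 1142 of the 1312 genes higher in WT were higher there as well, which is 87.0% of the WT genes and 69.0% of the 1654 higher genes of that pair, and 2 were lower. For lower genes the count was 3131 of 4191, which is 74.7% of the WT genes and 75.8% of the 4132 of that pair, and 10 were higher. Genotype differs between the pairs, so the second pair is a repeat of the treatment and not of the WT cells. Log2 fold changes had a Pearson r of 0.903 and a Spearman rho of 0.847 across these genes, which are not independent replicates.

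In the second pair, Nos2 was at 1.29 and 2630 TPM, Acod1 at 13.2 and 3215 TPM, Il1b at 1.51 and 227 TPM, and Rsad2 at 32.3 and 5276 TPM. Rsad2 had a log2 fold change of 7.07 there and 4.19 in WT, and Il1b 6.20 and 4.67. The genes called in WT held similar shares of these libraries: the 1345 higher genes 5.57% untreated and 35.1% with LPS, and the 4203 lower genes 35.8% and 12.2%. By list, 53 of 54 interferon-stimulated genes (median 3.39), 19 of 19 GTPases (5.27), 19 of 20 MHC class I genes (2.46) and 30 of 41 effectors (3.51) were higher. Of other lists, 29 of 33 replication genes (median -1.70), 22 of 31 sterol and fatty acid synthesis genes (-1.60) and 14 of 21 citrate cycle genes (-1.26) were lower there. More ribosomal protein genes (79 of 82, -1.91) and oxidative phosphorylation subunits (19 of 40, -0.95) were lower than in WT, a difference that was not tested.

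**Figure D5:**
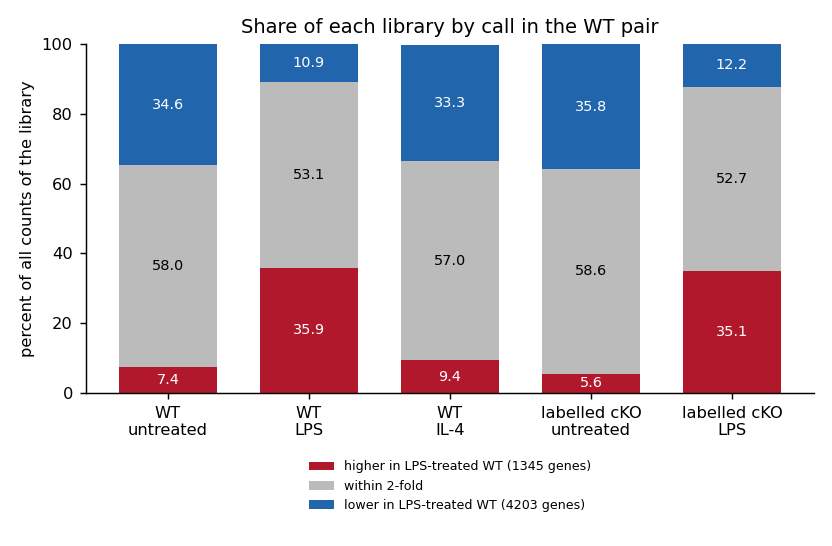
Percent of all counts held by the 1345 genes called higher, the 4203 called lower and the tested genes within 2-fold in WT BMDMs, in 5 BMDM libraries; each bar is 1 pooled library and starts at 0. The higher genes hold 7.37% of untreated and 35.9% of LPS-treated WT counts, and 5.57% and 35.1% in the libraries labelled cKO.

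Higher genes lay side by side in several families. Along the chromosomes, 204 of the 1194 higher protein-coding genes fell into 54 runs of at least 3 neighbouring tested genes that were all higher. The longest, with 8 genes, was the class II and antigen processing part of the MHC at chr17:34153072-34316674 (H2-DMb1, Psmb9, Tap1, Psmb8, Tap2, H2-Ab1, H2-Aa and H2-Eb1), which together had 18431 and 72041 counts and log2 fold changes of 1.26 to 2.50. Guanylate-binding protein genes formed a run on chromosome 3 (chr3:142493978-142638008, 5 genes from Gbp5 to Gbp2, 5081 and 209982 counts, 3.21 to 6.46) and another on chromosome 5 (chr5:105014150-105293698, 6 genes with Gbp8, Gbp9, Gbp4, Gm43302, Gbp10 and Gbp6, 2701 and 62523 counts). The 6 Ifit family neighbours at chr19:34550694-34650009 had 43825 and 317209 counts together (1.44 to 5.35). Further runs held the Tgtp and Ifi47 GTPases (chr11:48946150-49135387, 7 genes, 10204 and 91666 counts), the Phf11 family (chr14:59201209-59440884, 7 genes, 5563 and 48452), Aim2 and the Ifi200 family (chr1:173350879-173698395, 12378 and 82977) and the chemokines Ccl2, Ccl7, Ccl12 and Ccl8 (chr11:82035571-82116799, 12209 and 42292). Members of such families are similar or overlap, as Olfr56 and Olfr1396 do in the Tgtp run, so the split of reads between them is uncertain while their sum is less so. Lower genes, being 4029 of the 11585 tested protein-coding genes, formed 404 runs with 1559 genes, the longest of 11 genes at chr5:148327410-150597188, from Slc7a1 to N4bp2l1 with Brca2 among them. All runs rest on calls with library totals and were not redrawn under median-of-ratios scaling, where 1912 of the 4203 lower genes lost their call.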

How the data were processed

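RNA-seq of WT BMDMs was read from 2 libraries, untreated and 6 h after LPS. According to the study's methods, polyadenylated RNA was sequenced and reads were aligned with TopHat to the mm10 transcriptome; for the series as a whole the submitters' processing notes also name CASAVA 1.4, Bowtie 0.12.2 and mm8. The counting program, its strand setting and the annotation are not given in the sources used here. The authors deposited estimated counts per gene, divided by nothing and whole for about 75.3% and 76.6% of values above 0, and the authors' TPM, which divide by length. Columns with the authors' own fold changes and p-values were not used. Names were taken from GENCODE M21 by identifier for 51719 of 51912 genes, since some deposited symbols are calendar dates, and 431 entries that were no genes held no counts.

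Estimated counts were rounded, scaled by library total and compared as log2(CPM + 1) where the 2 libraries averaged 10 counts or more. The call needed a 2-fold difference and an adjusted p under 0.05 in an exact binomial test on reads, which compares 2 libraries and not conditions, so no p is printed. Limits are 95% Clopper-Pearson limits, which cover counting error only, since reads are not independent molecules. Against 0 counts, folds are bounds against a floor of 3 counts per library. Named genes were the 4 marker genes, the 15 highest and 15 lowest changes among called genes averaging 100 counts or more, the 10 of highest TPM per library, 5 genes at 0 counts untreated, members of the 41 gene lists and genes of the longest runs of neighbours. Members and lists were chosen with earlier results of these data known. Up to 6 members per list were to be described, and the further ones with values here, and the genes set beside IL-4, were picked after their values were seen. Some genes that this rule names are not reported here.

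Alternatives were TMM scaling (edgeR 4.0.16), median of ratios (DESeq2 1.42.0), totals without the 100 most counted genes, a pseudocount of 0.1, no filter, an average of 50 counts or more, folds of 1.2 and 4, the fold alone, the edgeR exact test with assumed coefficients of variation of 0.2 and 0.4, and TPM. The calculations were tested on simulated data and run in Python 3.11.15 (pandas 2.3.3, SciPy 1.17.1) and R 4.3.3.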

Additional observations from a re-analysis of the deposited data

Results flagged for a closer look

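Of the genes tested in both pairs of libraries, 12 were at least 2-fold lower after LPS in the WT pair and higher in the pair labelled Zmynd8 cKO, or the reverse. Each pair is 1 library a side, so the difference between the pairs was not tested. The serine/threonine kinase gene Hipk2 had 1935 and 660 counts in WT untreated and LPS-treated cells and 504 and 1419 in the libraries labelled cKO, log2 fold changes of -1.44 and 1.401. Zbed6 had 235 and 0 counts in WT and 9 and 109 in the other pair (-3.32 and 2.02), and Zfp871 was at -2.29 and 1.59 and Rbm41 at -1.01 and 1.02. B430305J03Rik had 1910 and 342 counts in WT and 43 and 738 in the other pair (-2.33 and 3.48), and the processed pseudogene Gm7336 2579 and 582 against 151 and 4665 (-2.03 and 4.70). The remaining 6 are mostly noncoding or of low count, namely Gm26778 (-2.24 and 1.57), Gm38394 (-1.17 and 1.70), Gm42927 (-1.46 and 1.27), Gm48271 (-1.05 and 1.81), Eif4a-ps4 (1.17 and -1.47) and Gm44170 (1.22 and -2.03). In 10 of the 12 the WT value was the lower one, and in these the untreated library labelled cKO held fewer counts than untreated WT.

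The medians of 5 gene lists had opposite signs in the pairs, again without a test of the difference. They were -0.0062 in WT and 0.063 in the other pair for the LPS receptor complex and Toll-like receptors, -0.26 and 0.42 for Toll-like receptor signalling proteins, -0.054 and 0.064 for AP-1, ATF, EGR and other immediate early factors, -0.30 and 0.25 for macrophage lineage factors and receptors, and -0.42 and 0.39 for the chromatin and repressor genes. All 5 were above 0 in WT as well under TMM and median-of-ratios scaling.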

How the results depend on the processing

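With 1 pooled library a side, no statement here has a replicate check, and counts alone limit what can be seen of genes with few reads. No paired analysis was possible because each group is 1 library and no result comes from a test across samples. The number of higher genes (1345) became 2191 with TMM, 2242 with median of ratios, 2653 at a fold of 1.2, 549 at a fold of 4 and 673 with an assumed coefficient of variation of 0.4, and the number of lower genes (4203) became 2340, 2291, 7857, 1135 and 1149. By construction, TMM and median of ratios multiply LPS-treated values by more, which shifts every log2 fold change of a well-counted gene upwards by 0.58 and 0.61. Under the same 5 settings the percent of LPS-treated counts in higher genes (35.9) became 49.9, 50.2, 53.9, 20.8 and 19.1, and the percent of untreated counts in lower genes (34.6) became 15.6, 15.2, 66.4, 8.77 and 6.37. Without the 100 most counted genes in the totals the 2 percentages were 41.9 and 29.3, with an average of 50 counts or more 35.87 and 34.55, and with TPM 34.96 and 35.62. The lists with a median above 0 numbered 16, and 29 with TMM and with median of ratios, while those above the median of all genes numbered 32, and 23 to 31 under the alternatives. Of 480 named genes called, 409 were called with TMM and with median of ratios, and 0 changed direction under any alternative run.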

Other observations

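Pathway names in the deposited gene annotation gave further groups, chosen here after their values were seen and given without a test. Genes of protein synthesis other than ribosomal proteins were lower: aminoacyl-tRNA biosynthesis had 31 of 44 tested genes at least 2-fold lower and 1 higher (median log2 fold change -1.57), and ribosome biogenesis in eukaryotes 46 of 72 lower and 0 higher (-1.49). With median-of-ratios scaling these were 23 and 35 lower. RNA polymerase subunits (16 of 27 lower, 0 higher, -1.22), pyrimidine metabolism (51 of 83 lower, 6 higher, -1.21) and N-glycan biosynthesis (25 of 40 lower, 1 higher, -1.24) were below the median of all genes too. At the high end, 34 of the 64 genes of antigen processing and presentation were higher and 9 lower (1.11), and 51 of the 125 genes of cytokine-cytokine receptor interaction were higher and 29 lower (0.58). The annotation's broader group of glycolysis and gluconeogenesis was mixed, with 13 of 55 higher and 15 lower (0.38, and -0.015 in the libraries labelled cKO), and 25 and 10 under median-of-ratios scaling.

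By annotated class, 40 of 236 tested antisense transcripts were higher and 24 lower, and 28 of 256 lincRNAs were higher and 45 lower. The strand setting of the counting is not known, so reads of an antisense transcript and its partner cannot be told apart.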
